A study of Mus musculus with 20 samples.

Results

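Autophagy was followed through 10 of the 24552 genes of the table, chosen by symbol, in corneal epithelium of mice of 4 ages. The 10 genes were *Ulk1*, *Becn1*, *Wipi1*, *Atg5*, *Atg7*, *Map1lc3a*, *Map1lc3b*, *Gabarap*, *Gabarapl1* and *Sqstm1*. *Ulk1* was picked because it rose with age in these same libraries, so its values are given as a description with no test, and only the other 9 genes were tested. Each of the 20 libraries held the epithelium of both corneas of 1 naïve, wild-type female C57BL/6J mouse, removed by debridement and sequenced in bulk from the 3′ end of the transcripts. The 4 groups of 5 mice were 2 to 3 months (the young group), 12 to 13 months, 18 to 19 months and 24 to 25 months of age. In bulk RNA, fewer cells of a type and less RNA per cell cannot be told apart. The animals of the colony came from a vendor, from ageing in house and from the National Institute on Aging, and the labels do not say which mouse came from where, so the part of the source in the results was not tested.

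Autophagy is the route by which a cell wraps part of its own cytoplasm in a double membrane, the autophagosome, and delivers it to the lysosome for breakdown. The ULK1 kinase starts the process and is held in check by the nutrient sensor mTORC1 and activated by the energy sensor AMPK. A lipid kinase complex built on Beclin 1 then marks the forming membrane, and WIPI proteins read that mark. ATG7 and ATG5 belong to the machinery that attaches the small proteins of the ATG8 family (LC3 and GABARAP) to the membrane, and receptors such as p62 (*Sqstm1*) bind ATG8 proteins and carry cargo in. In a stratified epithelium that is renewed throughout life, autophagy is one of the ways in which cells dispose of damaged proteins and organelles. The amount of a transcript does not measure how much autophagy takes place, because much of the control is by phosphorylation, lipid attachment and breakdown of the proteins themselves.

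At 24 months *Ulk1* was 1.83-fold above the young group, or 1.60-fold without young replicate 1. All 5 24-month libraries lay above the young range, as they did for 1.26% of all genes. Because *Ulk1* was picked for this rise, its difference from the other 9 genes was not tested. Of the other 9 genes, 0 were called changed from the young group at 12, 18 or 24 months, and each of their estimates at 24 months lay within 1.2-fold of the young group. *Gabarapl1*, an ATG8 family member, was the one of the 9 with the largest difference at any age, 1.53-fold above young at 12 months, but it did not pass the test. Of 118 further genes of the pathway that could be tested, 0 passed in any comparison, where between 0.195% and 0.904% of all genes did.

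The libraries held between 6699383 and 10762360 reads on genes (median 8731333). Values are normalized counts, that is reads divided by a size factor for the depth of the library, and fold changes are differences in log2(normalized count + 1). A gene was called changed at an adjusted p-value of at most 0.05 and a change of at least 1.2-fold, in a limma fit that kept the 11288 genes averaging 10 normalized counts or more, all 10 autophagy genes among them. The corneal epithelium was recognizable in every library: 8 of 8 epithelial marker genes were detected in all 20, with a summed normalized count of 364431 to 479754, and 0 of 8 were called at any age. Some markers of other cells, among those of keratocytes, glands and conjunctiva, were called lower with age. The conjunctival markers did not move as 1 list. At 24 months *Krt4* was called lower, *Krt13* and *Krt19* were lower without a call, and *Krt8* was 1.87-fold higher without a call. The summed keratocyte genes of the stroma ran from 1801 to 4787 in the young libraries and from 370.0 to 1115 at 24 months, and 5 of 8 tested were called lower. The summed gland protein genes ran from 430 to 9929 in the young libraries and from 0 to 128 at 24 months, and 4 of 5 were called lower. The part of these other cells in the values of the autophagy genes was not tested.

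*Ulk1* (chr5:110784489-110810120, GRCm38, protein-coding) encodes the kinase that opens the pathway. In the young group its normalized counts were 209, 318, 473, 428 and 444 in replicates 1 to 5. At 12 months they were 396, 355, 473, 508 and 311. At 18 months they were 529, 337, 406, 549 and 513. These groups overlapped widely, and 4 of the 5 values at 12 months lay within the young range. At 24 months the counts were 558, 772, 868, 626 and 524. All 5 lay above the highest young library, as did the 24-month libraries for 1.26% of all genes. They also lay above the highest 12-month library. Between 24 and 12 months, 3.24% of all genes had groups that did not overlap, in either direction. Of the 24-month libraries, 4 of 5 lay above the highest 18-month library. The young replicate with the lowest *Ulk1*, replicate 1, was also the library with the highest share of its reads on its 10 most abundant genes (34.9%, against 25.6% to 33.2% in the other 19).

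The group means of *Ulk1* rose in the order of age, from 374 ± 109 (SD, n = 5) in the young group to 409 ± 81.4 at 12 months, 467 ± 91.5 at 18 months and 669.7 ± 146 at 24 months. Neighbouring ages among the first 3 differed by less than 1 SD. On the log2 scale the differences from young were 0.16, 0.35 and 0.87, which are 1.12-, 1.28- and 1.83-fold, and the 24-month group was 0.71 (1.63-fold) above the 12-month group. The 3 comparisons with the young group share its 5 libraries. Without young replicate 1 the differences from young were −0.03 at 12 months, 0.16 at 18 months and 0.68 at 24 months, so the 12-month difference turned in sign and the 24-month difference was 1.60-fold. Among all 11288 genes tested, 283 (2.51%) had a larger rise at 24 months than *Ulk1*, against 2854 (25.3%) at 12 months and 1237 at 18 months.

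**Figure D1:**
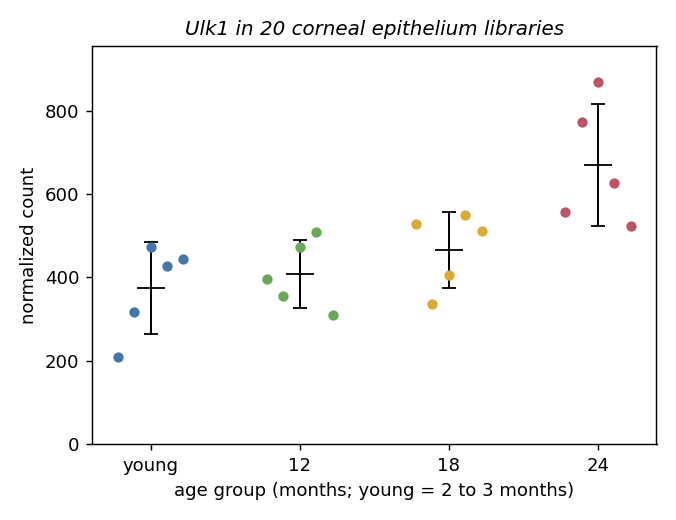
Normalized count of *Ulk1* (y axis) in each library at the 4 ages (x axis, months). Points are the 5 libraries of an age in the order of their replicate numbers, and the bar with whiskers is the mean ± SD. The 24-month libraries (524 to 868) all lie above the young libraries (209 to 473), and the 18-month libraries (337 to 549) reach into both ranges.

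The sequence upstream of *Ulk1* is shown because it is the gene of the 10 that rose. It was taken from the promoter table of RefSeq (GRCm38.p6), which matched 8 of the 10 genes, and is the stretch of 211 bases before the outermost annotated start of the gene, chr5:110810121-110810331 on the minus strand. Capitals mark CCGCCC, the reverse complement of the GC box GGGCGG that Sp1 family factors are known to bind. GGGCGG was searched after the sequence had been read.

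Ulk1: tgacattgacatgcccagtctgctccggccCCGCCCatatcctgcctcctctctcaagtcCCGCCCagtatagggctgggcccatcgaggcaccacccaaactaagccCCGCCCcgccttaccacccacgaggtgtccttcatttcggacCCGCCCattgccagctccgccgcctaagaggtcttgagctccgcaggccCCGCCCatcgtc

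The 300-base *Ulk1* window of the table held GGGCGG 5 times on either strand, and 891 of the 32851 promoters of the same length (2.71%) held it at least as often. Among the other genes *Wipi1* held it 9 times, *Sqstm1* 3 times, *Gabarapl1* 2 times, *Map1lc3b* and *Atg5* 1 time each, and *Gabarap* and *Atg7* did not hold it. The GC content of the *Ulk1* window was 68.0% (median of all promoters 52.7%). The promoters compared were not matched for GC content, and the motif was searched after the sequence had been read. The share of 2.71% is a description with no test. Of the 3 motifs listed for stress and lysosomal factors, the E-box CACGTG known for the TFEB family, the hypoxia element core ACGTG and the antioxidant element TGACNNNGC, the *Ulk1* window held none on either strand. The following windows show the matches in the other genes, with the motif in capitals. They run on the plus strand, at chr10:44268315-44268340 for *Atg5*, chr6:114670954-114670979 for *Atg7*, chr11:69991252-69991276 for *Gabarap* and chr8:121590432-121590460 for *Map1lc3b*. For *Atg7* the promoter searched, chr6:114670846-114671145, lies inside the gene and not at its outermost annotated start (chr6:114643127). Neither GGGCGG nor the 3 motifs were searched at that outermost start.

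Atg5, CACGTG: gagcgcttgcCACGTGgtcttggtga

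Atg7, CACGTG: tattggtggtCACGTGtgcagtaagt

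Gabarap, ACGTG on the other strand: agcgtagaaaCACGTctcatgaaat

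Map1lc3b, TGACNNNGC: gcgagtcaccTGACTCGGCtgcggactga

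CACGTG contains ACGTG, so the first 2 windows match both. CACGTG was held by 7.15% of all promoters, ACGTG by 19.6%, TGACNNNGC by 12.4% and GGGCGG by 35.7%. These are matches of letters in a fixed window. No factor binding was measured, and the 4 genes with such a match were not called changed at any age.

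Of the initiation genes beyond *Ulk1*, *Becn1* (chr11:101288258-101302286) encodes Beclin 1, the scaffold of the lipid kinase complex. Its normalized counts averaged 549 ± 84.1 in the young group, 521 ± 123 at 12 months, 467 ± 88.3 at 18 months and 564 ± 35.7 at 24 months. All 24-month libraries (516 to 599.7) lay wholly inside the young range (444 to 676). The difference was 0.05 on the log2 scale, with a 95% interval of −0.27 to 0.37 (0.827- to 1.29-fold) and an adjusted p-value of 0.955 in limma. At 18 months *Becn1* was at −0.24 (adjusted p = 0.847), and the 18-month group was the lowest of the 4 ages.

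*Wipi1* (chr11:109573521-109611389) encodes a reader of the lipid mark on the forming membrane. Its counts were 437, 573, 447, 537 and 427 in the young replicates and 495, 608, 489, 662 and 642 at 12 months. They were 567, 519.6, 473, 428 and 669 at 18 months and 406, 477, 577, 448 and 441 at 24 months. The 12-month group was the highest (579 ± 82.1) and the 24-month group the lowest (469.9 ± 65.1), and 4 of the 5 24-month libraries lay below the lowest 12-month library. The difference between 24 and 12 months was −0.30 (0.812-fold, 95% interval 0.662 to 0.997), with an adjusted p-value of 0.334 in limma, and a two-sided exact permutation test of the 5 against 5 libraries gave p = 0.0476. Against the young group *Wipi1* was at 0.26, 0.13 and −0.04 at 12, 18 and 24 months.

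*Atg7* (chr6:114643127-114860604) encodes the enzyme that activates the ubiquitin-like proteins of the pathway, and *Atg5* (chr10:44268322-44364299) encodes a part of the ligase that places ATG8 proteins on the membrane. *Atg5* varied least with age: its group means ran from 551 ± 64.1 at 24 months to 596 ± 90.6 in the young group, and the largest difference between any 2 ages was 1.08-fold. At 24 months it was at −0.11 (95% interval 0.765- to 1.13-fold, adjusted p = 0.848 in limma). *Atg7* had low counts, from 180 ± 52.0 at 12 months to 214 ± 44.0 in the young group. Its differences from young were −0.26, −0.05 and −0.16, and the interval at 24 months reached from 0.680- to 1.18-fold (adjusted p = 0.835). All 5 libraries at 18 and at 24 months and 3 of 5 at 12 months lay within the young range of 144 to 253.

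*Map1lc3a* (chr2:155276364-155278073), *Map1lc3b* (chr8:121590438-121598760), *Gabarap* (chr11:69991370-69994949) and *Gabarapl1* (chr6:129533192-129542331) encode ATG8 proteins, the tags that are attached to the autophagosome and bind cargo receptors. *Gabarapl1* was counted at 172, 145, 121, 152 and 142 in the young replicates and at 208, 213, 265, 149 and 321 at 12 months. Of the 12-month libraries, 4 of 5 lay above the highest young library, and replicate 4 lay inside the young range. At 18 months the counts were 262, 242, 133, 232 and 149, and at 24 months 152, 174, 199.6, 165 and 156. The spread was wide at 12 months (231 ± 64.8) and 18 months (204 ± 58.3) and narrow in the young group (147 ± 18.2) and at 24 months (169 ± 18.9).

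The difference of *Gabarapl1* from young was 0.62 at 12 months (1.53-fold, 95% interval 1.13 to 2.07), 0.43 at 18 months (interval 0.996- to 1.82-fold) and 0.21 at 24 months (interval 0.856- to 1.56-fold). The adjusted p-values in limma were 0.277, 0.702 and 0.798, so none passed. The exact permutation test of 12 months against young gave p = 0.0238, where 0.00794 is the smallest that 5 against 5 libraries allow. In all, 36 such exact tests were made (9 genes in 4 comparisons), and the 2 named here for *Gabarapl1* and *Wipi1* are the ones below 0.05. Leaving out any of the 20 libraries kept the 12-month difference of *Gabarapl1* between 0.49 and 0.76, with adjusted p-values of 0.153 to 0.526.

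*Map1lc3b* had the most reads of the 10 genes. Its counts were 1309.9, 1399.9, 1420.1, 1399 and 1867 in the young replicates and 1141, 1661, 1632, 1484 and 2041 at 12 months. They were 1440.4, 2163, 1743, 1576 and 1553 at 18 months and 1510.5, 1370.1, 1895, 1328 and 1321 at 24 months. Every aged group overlapped the young one, and young replicate 5 stood above the other 4 young libraries. The 24-month group mean of 1485 ± 241 was within 1 SD of the young mean of 1479 ± 221, and the log2 difference was 0.0034 (95% interval 0.819- to 1.23-fold, adjusted p = 0.998 in limma).

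*Map1lc3a* was lower at the older ages without passing the test, with means of 631 ± 90.0 in the young group, 616 ± 156 at 12 months, 551 ± 99.7 at 18 months and 536 ± 54.1 at 24 months. At 24 months the difference was −0.23 (0.853-fold, 95% interval 0.681 to 1.07, adjusted p = 0.674 in limma), and 3 of the 5 libraries lay within the young range of 507 to 741. *Gabarap* averaged 629 ± 109 among young libraries and 640.0 ± 107 at 24 months, a difference of 0.03 (interval 0.827- to 1.25-fold, adjusted p = 0.979), with all 5 24-month libraries inside the young range. Its highest mean, 724 ± 83.5, was at 12 months (0.21, adjusted p = 0.703).

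The make-up of the ATG8 family was also described as shares of the reads of its 5 measured members, the 4 above and *Gabarapl2*. *Map1lc3b* held 47.9% ± 3.90 (SD, n = 5) of the family in the young group, 47.2% ± 3.58 at 12 months, 51.7% ± 5.43 at 18 months and 48.8% ± 3.87 at 24 months. *Map1lc3a* went from 20.6% ± 3.44 in the young group to 17.7% ± 1.05 at 24 months, and *Gabarap* from 20.4% ± 3.40 to 21.2% ± 3.44. *Gabarapl1* was at 4.79% ± 0.755 in the young group, 6.86% ± 1.38 at 12 months, 6.22% ± 1.69 at 18 months and 5.61% ± 0.626 at 24 months. By mean share, the order of the members changed only between *Map1lc3a* and *Gabarap* and between *Gabarapl1* and *Gabarapl2*. The summed normalized count of the family was 3078 ± 237 in the young group and 3033 ± 309 at 24 months. Reads from the 3′ end of different genes are not captured with equal efficiency, so the shares compare ages within the family and not amounts of protein.

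*Sqstm1* (chr11:50200152-50210820) encodes p62, the receptor that carries ubiquitin-tagged cargo into autophagosomes and is itself broken down there. Its counts ran from 563 to 669 among young mice, from 465 to 738 at 12 months, from 537 to 705 at 18 months and from 573 to 774 at 24 months. The young range lay inside the 12-month range, and 3 of the 5 24-month libraries lay inside the young range. At 24 months the difference was 0.08 (95% interval 0.877- to 1.27-fold, adjusted p = 0.897 in limma). *Sqstm1* was the member with the smallest spread between replicates (pooled SD of 0.18 on the log2 scale), and *Ulk1* the one with the largest (0.36).

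**Figure D2:**
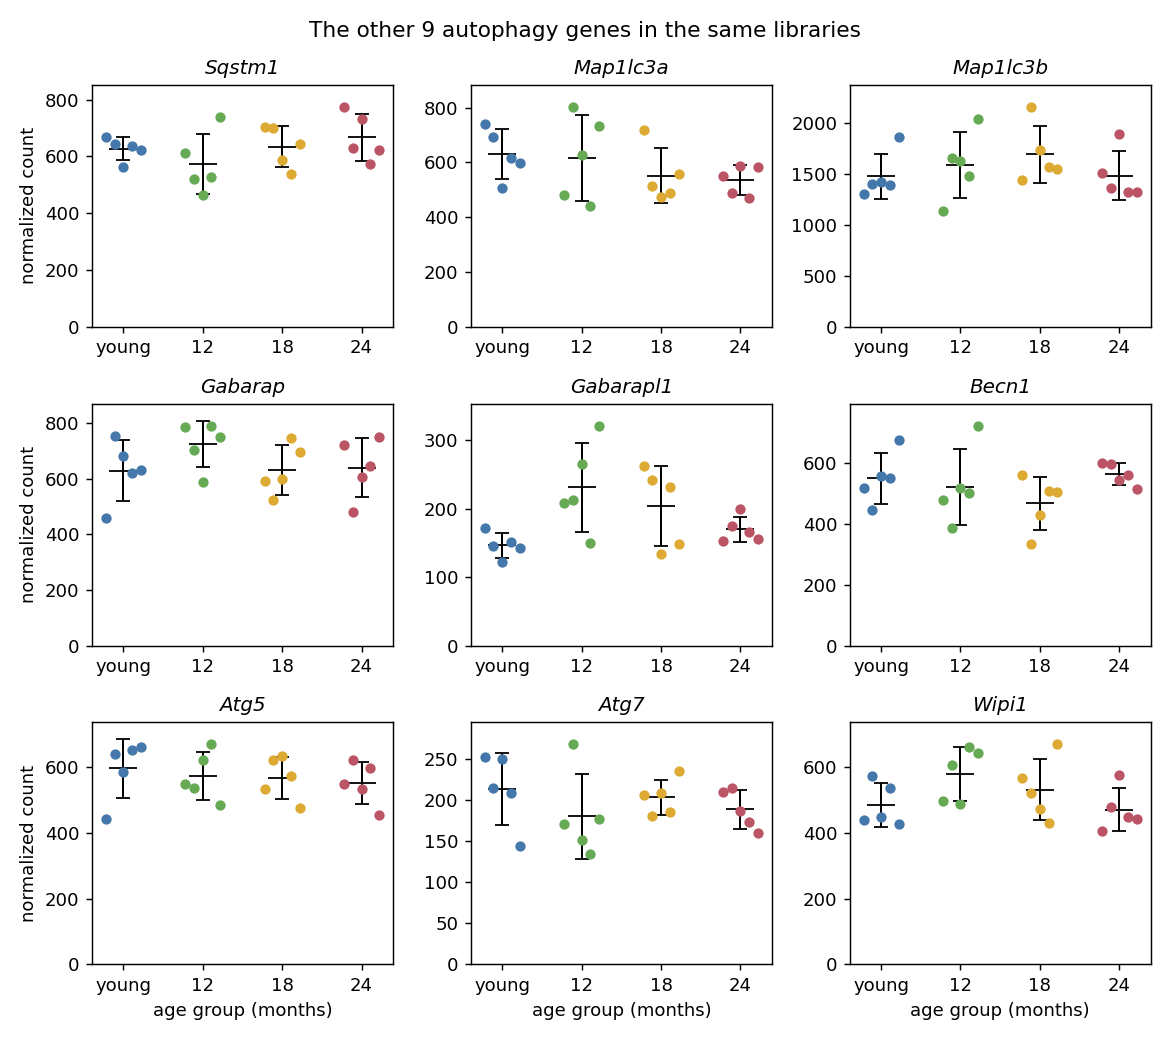
Normalized counts (y axis, each panel with its own scale from 0) of the other 9 autophagy genes in each of the 20 libraries at the 4 ages (x axis, months). Points are libraries and the bar with whiskers is the mean ± SD of 5. The ages overlap in every panel. *Gabarapl1* at 12 months has 4 of 5 libraries above the young ones.

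Side by side, the 9 tested genes had a median log2 difference from young of −0.05 at 12 months, 0.01 at 18 months and 0.0034 at 24 months, beside −0.01, −0.0011 and 0.0052 over all 11288 genes. Of the 9, 4 were higher and 5 lower at 12 months, and 5 were higher and 4 lower at 18 and at 24 months. None was called in any of the 3 comparisons, where limma called 0.532%, 0.673% and 0.780% of all genes, nor between 24 and 12 months (0.195%) or in the F test over the 4 ages (0.904%), and voom on the recovered reads called 0 of 9 as well. At an unadjusted limma p-value below 0.05 the counts were 1 (*Gabarapl1*), 0 and 0 of the tested genes against young, 1 between 24 and 12 months (*Wipi1*) and 1 in the F test (*Gabarapl1*). The shares of all genes at that level were 9.56%, 7.18% and 9.97% against young, 14.7% between 24 and 12 months and 11.4% in the F test. None of the 9 had groups that did not overlap in these 4 comparisons, against 1.98%, 2.05%, 2.81% and 3.24% of all genes. The counts of 0 and 1 are near these shares and are no result about the 9 genes as a set.

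At 24 months the 95% interval lay within 1.5-fold of the young group for 8 of the 9 genes and within 2-fold for all 9, and *Gabarapl1* was the exception. At 12 months 7 lay within 1.5-fold and 8 within 2-fold, and at 18 months 8 and 9. The upper bounds at 24 months were between 0.10 (*Map1lc3a*) and 0.65 (*Gabarapl1*) on the log2 scale, and the estimate for *Ulk1* was 0.87. Because *Ulk1* was picked for that estimate, the difference between it and the other 9 was not tested.

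**Figure D3:**
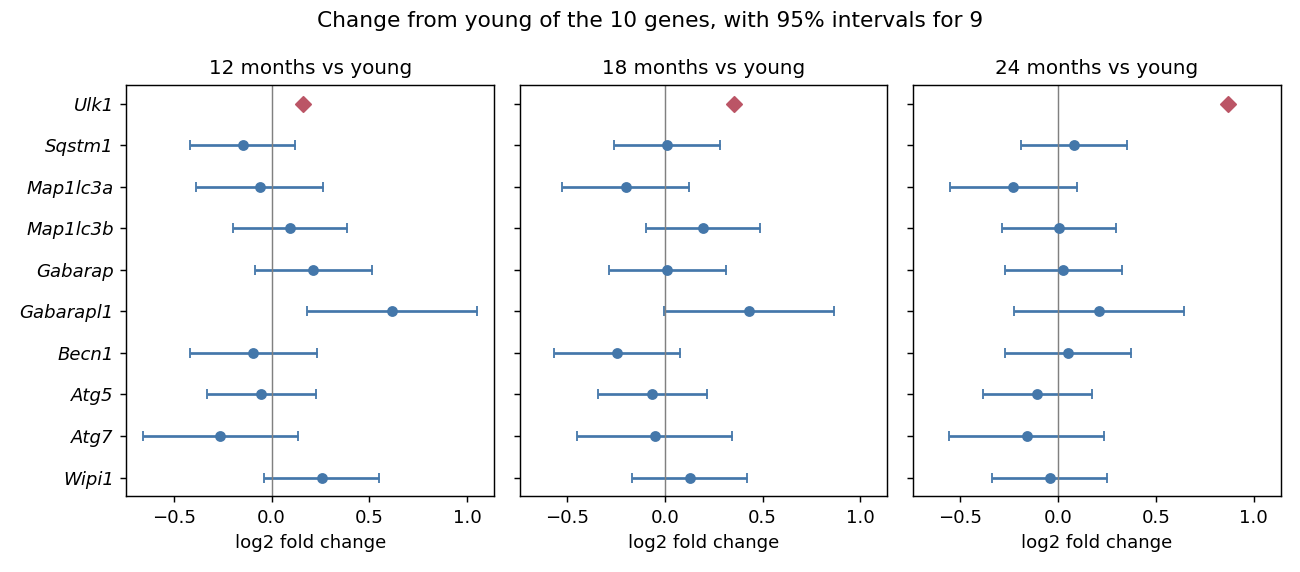
Log2 fold change from young (x axis) of the 10 genes (y axis) at 12, 18 and 24 months. Circles with whiskers are the 9 tested genes with 95% intervals from limma, and the diamond is *Ulk1*, shown without an interval because it was picked for its rise. At 24 months the 9 intervals span 0. The diamond is at 0.87, and its difference from the other 9 was not tested.

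From mouse to mouse, the correlations between members were of both signs. Whether this differs from other sets of 10 genes was not tested. Over the 45 pairs of the 10 genes, the correlation of their deviations from the age means across the 20 libraries ran from −0.56 (*Map1lc3a* and *Atg5*) to 0.58 (*Map1lc3a* and *Gabarapl1*), with a median of 0.06 and 23 positive pairs. *Ulk1* was nearest to *Atg5* in this respect (0.50). The genes most like *Ulk1* over the 20 libraries, by Pearson's r of the log2 values, were *Hp1bp3* (0.867), *Junb* (0.863), *Pan3* (0.845), *Ulk3* (0.843) and *Mfsd1* (0.835). After the age means were taken out they were *Rac1* (0.883), *Ptprf* (0.842), *Ddr1* (0.840), *Mfsd1* (0.832) and *Sema4d* (0.831). These are the highest of 11288 values, the points share their libraries and depth, and nothing about function follows from them. *Ulk3*, a kinase related to *Ulk1*, averaged 204 in the young group, 193 at 12 months, 223 at 18 months and 303 at 24 months. Because *Ulk3* was found by its likeness to *Ulk1*, which was picked for its rise, these means are a description with no test.

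Further genes of the pathway were described from lists by step, 120 genes beyond the 10, of which 118 could be tested. In the comparisons with young at 12, 18 and 24 months, 0 of 118 were called up and 0 down, and the same held between 24 and 12 months and in the F test. Limma called 0.532%, 0.673%, 0.780%, 0.195% and 0.904% of all genes in these 5 tests, so that a count of 0 is near the background. At an unadjusted p-value below 0.05 the counts in limma were 7, 10 and 13 of 118 against young, 19 between 24 and 12 months and 22 in the F test. As shares these are 5.93%, 8.47% and 11.02% against young, 16.1% and 18.6%, beside 9.56%, 7.18%, 9.97%, 14.7% and 11.4% of all genes. Whether the share in the F test differs from that of all genes was not tested. The median log2 differences were −0.05, 0.02 and 0.07 against young and 0.12 between 24 and 12 months, beside 0.02 over all genes for the last. Voom on the recovered reads also called 0. The groups did not overlap for 1 (*Atg12*), 0 and 3 (*Bnip3*, *Hexa* and *Rb1cc1*) of the 118 against young and for 3 between 24 and 12 months (*Nfe2l2*, *Prkab1* and *Ulk2*). These shares of 0.847%, 0%, 2.54% and 2.54% lie below those of all genes (1.98%, 2.05%, 2.81% and 3.24%), so the lack of overlap does not set these genes apart.

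Within the ULK complex list, 0 of the 4 genes other than *Ulk1* were called at 24 months. *Ulk2*, the closest relative of *Ulk1* and able to stand in for it, was counted at 125, 187, 208, 135 and 250.4 in the young replicates and at 220.4, 249.6, 229, 271 and 224 at 24 months, a difference of 0.44 (adjusted p = 0.420 in limma). Its groups overlapped, with 1 of the 5 24-month libraries above the young range. *Rb1cc1*, which encodes the scaffold FIP200, ran from 2316 to 2717 in the young group and from 1966 to 2197 at 24 months. All 5 of its 24-month libraries lay below the young ones, with a difference of −0.27 (0.830-fold, 95% interval 0.727 to 0.948, adjusted p = 0.245). *Atg13* and *Atg101*, which link the kinase to the complex, were at 0.02 and 0.01. *Ulk2*, *Rb1cc1*, *Atg13* and *Atg101* were chosen for mention as the other genes of this list after their values were seen.

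Among the nutrient and energy sensors upstream of *Ulk1*, 19 of 25 genes were higher at 24 months, with a median of 0.16, and 0 were called. Over all genes 50.7% were higher, with a median of 0.0052, and the difference of this list and of the lists below from all genes was not tested. *Ddit4*, which encodes the mTORC1 inhibitor REDD1, was at 0.81 (1.76-fold, 95% interval 1.21 to 2.56, adjusted p = 0.201 in limma), and its groups overlapped, with 77 to 213 in the young group and 158 to 346 at 24 months. *Rraga*, a GTPase that brings mTORC1 to the lysosome, was at 0.68 (adjusted p = 0.211). At 18 months *Prkaa1*, a catalytic subunit of AMPK, was at 0.60 and *Rictor*, a subunit of mTORC2, at 0.39 (adjusted p = 0.445 and 0.427 in limma). *Prkaa2*, the other catalytic subunit of AMPK, averaged 435 in the young group and 434 at 18 months.

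*Prkab1*, a regulatory subunit of AMPK, came nearest to a call. Its counts were 549, 416, 574, 474 and 400.1 at 12 months and 744, 809.9, 667, 791 and 676 at 24 months, so that no library of the 2 groups overlapped. The difference was 0.62 (1.54-fold, 95% interval 1.26 to 1.87, adjusted p = 0.0501). The young libraries, at 444, 668, 679, 629 and 645, reached into both ranges, and against them the 24-month group was at 0.28 (adjusted p = 0.512). *Prkab1* had an adjusted p-value of 0.106 in the F test, the lowest of the 118. When only genes averaging 50 normalized counts or more were kept, and likewise with quantile normalization or a pseudocount of 10, it was called between 24 and 12 months (adjusted p = 0.0408, 0.0485 and 0.0482 in limma). It was not called with no filter, a pseudocount of 0.1, only the groups compared, the replicate block or voom. Leaving out 1 library gave a call of *Prkab1* between these ages in 4 of 20 runs.

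For the steps around the lipid kinase and the membrane, 10 and 8 genes were tested and 0 called. *Vmp1*, a membrane protein needed for the autophagosome to form, was at 0.52 between 24 and 12 months (adjusted p = 0.156 in limma). *Wdr45*, a relative of *Wipi1*, was at −1.08 at 12 months against young (adjusted p = 0.292). In the conjugation list 6 of 8 were higher at 24 months (50.7% of all genes), with a median of 0.17. Among the 15 receptors, *Retreg1*, a receptor for the endoplasmic reticulum, was lowest at 12 months (276 ± 35.5, against 454 ± 150 in the young group). The difference was −0.66 (0.632-fold, 95% interval 0.483 to 0.827, adjusted p = 0.135 in limma). Without young replicate 1 it was called (−0.80, adjusted p = 0.0294). *Bnip3*, a receptor for mitochondria and a target of HIF-1, was named after its values were seen, since it stood farthest out in the plot by step. It had low counts, from 1.06 to 18.0 in the young group and from 20.01 to 60.5 at 24 months, a difference of 1.69 with a 95% interval of 1.22- to 8.47-fold (adjusted p = 0.376).

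Among the transcription factors, 8 of 9 were lower at 24 months than in the young group (all genes had 50.7% higher), with a median of −0.10, and 0 were called. *Nfe2l2*, which encodes the oxidative stress factor NRF2, was highest at 12 months (1838 ± 186, against 1512 ± 272 in the young group and 1413 ± 107 at 24 months). It was at 0.29 at 12 months against young (adjusted p = 0.352 in limma) and at −0.38 between 24 and 12 months (adjusted p = 0.136), where the libraries did not overlap.

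At the far end of the route, 14 fusion genes and 24 lysosomal genes were tested and 0 called. *Hexa*, a subunit of the lysosomal enzyme hexosaminidase, was counted at 58.1, 63.0, 92.2, 114 and 113 in the young replicates and at 139, 225, 124, 140.1 and 133 at 24 months. The groups did not overlap, and the difference was 0.80 (1.74-fold, 95% interval 1.25 to 2.44, adjusted p = 0.135 in limma). At 12 and 18 months it was at 0.45 and 0.63 (adjusted p = 0.576 and 0.445). The lysosomal list as a whole had a median of −0.01 at 24 months, with 11 genes higher and 13 lower.

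**Figure D4:**
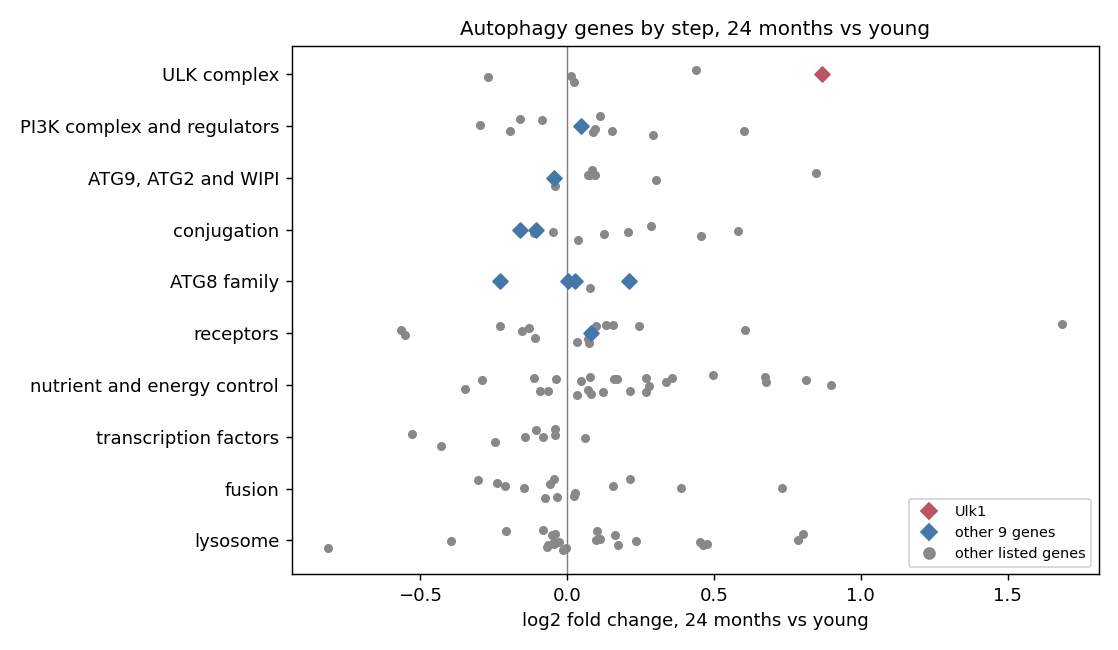
Log2 fold change at 24 months against young (x axis) of the autophagy genes by step (y axis). Diamonds are the 10 genes described one by one, with *Ulk1* at 0.87, and grey points are the 118 other listed genes, of which 0 were called. Points are jittered vertically, and *Bnip3* lies farthest right at 1.69.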

How the data were processed

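Bulk RNA sequencing of corneal epithelium (20 libraries, 5 at each of 4 ages) was read from the deposited table of the whole series. Per the methods of the study, the authors used cutadapt for trimming, STAR for alignment to GRCm38, HTSeq for counts per gene and the size factors of DESeq2 for depth. The deposited numbers are on the log2 scale, each being the authors' normalized count with 1 added. Multiplied by the size factor of the library (0.7603 to 1.3343), 100% of the values came out as whole reads, within 0.001 of a read. The authors' own fold changes and p-values, held in other columns, were not used. Whether the counting used strand is not given in the sources used here.

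The ages were fitted together with limma 3.58.1 (R 4.3.3, variance trend) on the log2 values of 11288 genes averaging 10 normalized counts or more, with Benjamini-Hochberg adjustment over all of them. Single genes were also compared with two-sided exact permutation tests (scipy 1.17.1). The p-values measure the spread between mice, each of which gave 1 library. That spread includes counting error, which was not estimated apart. The 10 genes had between 133 and 2195 reads in every library. The 10 genes and the lists were chosen with earlier results of these data known. The lists were a set of autophagy genes by step and markers of corneal epithelium, stromal keratocytes, conjunctiva, leukocytes, vessels, Schwann cells, melanocytes and gland proteins. Conjunctival markers were called lower for 2, 2 and 1 of 4 tested at 12, 18 and 24 months, and 0 leukocyte, vessel, Schwann cell or melanocyte markers were called. The genes named from the autophagy lists were those called, or, where a comparison called none, the 3 of smallest p. Some were named beyond this rule. The other ULK complex genes and *Bnip3* were named after their values were seen, and *Atg12* because its groups did not overlap. *Gabarapl2* was named as a member of the ATG8 family, and *Psap* and *Tollip* because an alternative called them. The planned tests of the shares of the ATG8 family are not printed, because they run over the chosen genes alone. Replicate numbers were tested as pairs: over 30 pairs of libraries with the same number, the correlation of deviations from the age means ran from −0.303 to 0.159, so they were not used as a block.

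The alternatives were quantile normalization, no filter on low values, a filter at 50, pseudocounts of 0.1 and 10, only the groups compared, the replicate block, voom on the recovered reads, a fold threshold of 1.5 and leaving out each library. The fits were also run on simulated counts, with a spread that was set and not fitted to these libraries. The outcome is not given here and is not used as support. Gene positions and promoters came from RefSeq.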

Additional observations from a re-analysis of the deposited data

Results flagged for a closer look

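*Map1lc3b* in young replicate 5 (1867 normalized counts) stood apart from the other 4 young libraries (1309.9 to 1420.1), with a gap of 0.802 of the whole range of the group, above the critical value of 0.71 for 5 samples. It was the 1 such value among 40 groups of 5 libraries (10 genes at 4 ages), where chance gives about 1 in 20.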

How the results depend on the processing

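None of the 9 tested genes was called under any alternative run. For *Ulk1*, picked for its rise, the difference from young at 24 months ran from 0.68 to 0.97 on the log2 scale over 28 alternatives. Many of these could not move it. The filters, the replicate block, the fit of only the groups compared and leaving out a 12- or 18-month library keep both group means. The range is a description and is not used as support. Signs of log2 differences turned only for differences of at most 0.16 in size. With quantile normalization *Sqstm1* and *Gabarap* at 18 months were at −0.00188 and −0.00482, and with voom at −0.00543 and −0.000713, with *Map1lc3b* at 24 months at −0.00385. Leaving out 1 library each gave, against young, ranges of −0.0322 (without young replicate 1) to 0.26 for *Ulk1* at 12 months, −0.156 to 0.00406 for *Atg5* at 12 months, −0.188 to 0.0144 for *Atg7* at 18 months, −0.218 to 0.00735 for *Becn1* at 12 months and −0.0239 to 0.127 at 24 months. The ranges were −0.0957 to 0.0831 for *Gabarap* at 18 months and −0.0820 to 0.126 at 24 months, −0.165 to 0.0497 for *Map1lc3a* at 12 months, −0.00352 to 0.206 for *Map1lc3b* at 12 months and −0.0879 to 0.0902 at 24 months, −0.0292 to 0.0690 for *Sqstm1* at 18 months and −0.120 to 0.0195 for *Wipi1* at 24 months. Between 24 and 12 months they were −0.111 to 0.0125 for *Atg5* and −0.203 to 0.00694 for *Map1lc3b*. In percentage points, the share of *Gabarap* in the ATG8 family differed from young by −0.00781 to 2.73 at 12 months, −2.06 to 0.396 at 18 months and −0.424 to 1.67 at 24 months, and that of *Map1lc3b* by −1.61 to 0.856 at 12 months and −0.486 to 2.45 at 24 months.

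Of the 118 other pathway genes, 1 (*Prkab1*) instead of 0 was called between 24 and 12 months with quantile normalization, with a filter at 50 and with a pseudocount of 10. Leaving out 1 library gave 0 to 1 calls at 12 months (*Retreg1*, without young replicate 1), 0 to 1 at 24 months (*Psap*, without young replicate 3), 0 to 1 in the F test (*Prkab1*, without young replicate 1) and 0 to 2 between 24 and 12 months. The last were *Prkab1* without young replicate 1, 12-month replicate 1, 12-month replicate 3 or 18-month replicate 2, and *Tollip* without 12-month replicate 1. The cause was not tested. The replicate number as a block gave 0 calls among the 9 genes and 0 among the 118 in each comparison, and the adjusted p-value of *Gabarapl1* at 12 months was 0.356 with it. With 5 mice an age, the 95% intervals at 24 months reached from 0.27 (*Sqstm1*) to 0.43 (*Gabarapl1*) to either side on the log2 scale for the 9 genes, beside a median of 0.50 over all genes.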
